A study of Mus musculus with 44 samples.

Results

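Single cells carrying a Prrx1-driven label in adult mouse hindlimb muscle were split by how much Prrx1 transcript they held. Cells with a deposited log2 value of 5 or more for Prrx1 were called Prrx1-high and cells under 5 Prrx1-low, which gave 23 high and 21 low cells of 44 in all. All cells came from adult C57BL/6 mice of the genotype Prrx1-CreERT;Tomato that received 2 mg of tamoxifen daily for 3 days. The Cre recombinase is driven by Prrx1 and needs tamoxifen to act, and a cell in which it has acted stays red whatever its later Prrx1 level. Muscle was digested with collagenase and dispase, red cells were sorted, and single cells were picked under a microscope. No animal is named in the labels and all cells share 1 group, which makes them 1 sample: the classes were compared by size only, without p-values, and SDs are over cells.

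Prrx1 encodes a homeodomain protein that binds DNA in limb and craniofacial mesenchyme and is needed there for skeletal development. In adult tissues it remains in part of the connective tissue fibroblasts. In muscle these include the fibro-adipogenic progenitors, which carry the receptor Pdgfra and the surface protein Ly6a (Sca-1), make interstitial matrix and support muscle stem cells. The comparison asks which other genes differ between labelled cells with much and with little Prrx1.

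Values are log2 of FPKM plus 1, where FPKM counts fragments by transcript length and library size. They had been forced to 1 shared distribution over cells before deposit, with 1540 rows at 5 or more in every cell, so a level ranks a gene within its cell and the sequencing depth is unknown. By rank correlation of whole profiles, 42 cells fell into 6 blocks of 7 linked libraries and 2 cells into none. Within blocks the lowest correlation was 0.588, and 48 of 820 other pairs reached the threshold of 0.534. Since libraries of a block resemble each other, each difference was also taken within blocks and with values under 5 set to 5.

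Prrx1 itself (ENSMUSG00000026586, chromosome 1, 163245119 to 163313710, minus strand, GRCm38) ran from 5.08 to 7.95 in the high cells, with a median of 6.20. In the low cells it ran from 0.56 to 4.96, with a median of 2.13. These values made the classes and are given as a description. The cells nearest to the threshold were cell 8 at 4.96 and cell 3 at 4.63 below it, and cell 22 at 5.08 and cell 23 at 5.15 above it. No low cell was at 0, so the low class holds less Prrx1 and is not shown to lack it.

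Every block held cells of both classes, in unequal numbers. Blocks 2 and 6 stood farthest apart, with 2 high cells of 7 and 6 high cells of 7. Block 1 and block 5 held 3 high cells each, block 3 held 4 and block 4 held 5, and both cells in no block were low. The gap between the classes was widest in block 5, where the highest low cell was at 2.13 and the lowest high cell at 6.54.

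**Figure D1:**
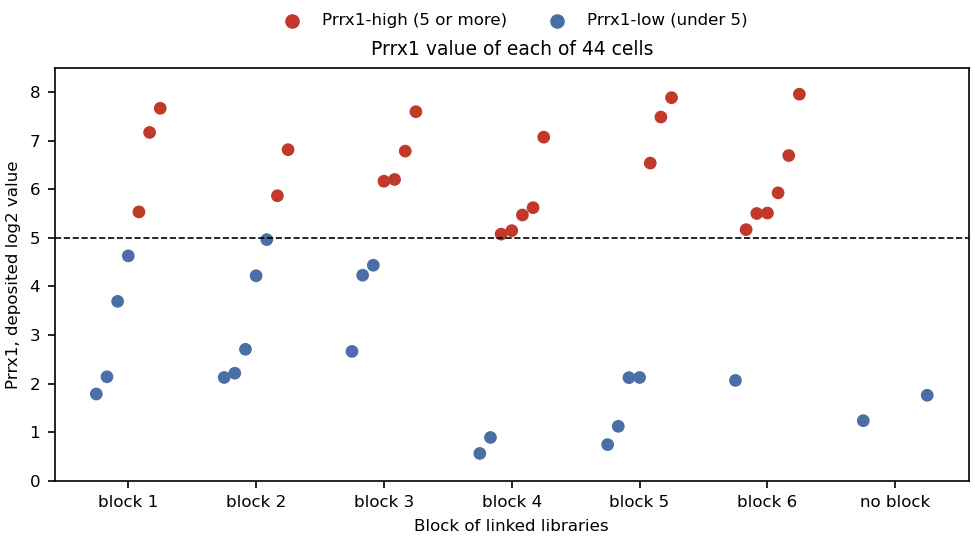
Deposited log2 value of Prrx1 (vertical axis) in each of 44 cells, arranged by block of linked libraries (horizontal axis). Red points are the 23 cells at 5 or more and blue points the 21 cells under 5, and the dashed line marks 5. Each of the 6 blocks holds both colours, with 2 to 6 high cells of 7.

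Cells of both classes carried fibroblast markers. Of 13 measured markers of fibro-adipogenic progenitors or fibroblasts, high cells held 10.7 ± 1.56 at a log2 value of 5 or more (SD, 23 cells) and low cells 10.1 ± 1.68 (21 cells). The range was 6 to 13 in each class. None of the 13 differed by 2 or more, and their median difference, high minus low, was 0.02, against 0.01 over all genes compared. Ly6a was at 11.3 ± 1.95 in high and 11.4 ± 2.10 in low cells, and reached 5 in all cells of both classes. Cd34, a sialomucin of stromal progenitors, had a mean of 8.38 in each class.

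Pdgfra ran from 1.88 to 9.96 in the high cells, with a median of 7.41, and from 1.33 to 9.94 in the low cells, with a median of 5.80. The ranges lay almost on top of each other. It reached 5 in 17 of 23 high cells (73.9%, exact Clopper-Pearson 95% interval 51.6 to 89.8) and in 14 of 21 low cells (66.7%, 43.03 to 85.4). These intervals, here and below, cover counting error only. They take linked cells as independent, and whether they overlap is not a test of the classes. Pdgfrb, the PDGF receptor shared with mural cells, reached 5 in 12 high cells (52.2%, 30.6 to 73.2) and 6 low cells (28.6%, 11.3 to 52.2), and the intervals overlap. Among the fibrillar collagens, Col1a2 had means of 9.15 ± 0.97 and 8.61 ± 1.54 and Col1a1 of 7.43 ± 1.67 and 7.49 ± 1.83, high cells first. Col3a1 had means of 9.11 ± 1.87 and 8.20 ± 2.71, a difference of 0.91 that was 1.20 within blocks. Fbln1, a matrix glycoprotein, differed most among the fibroblast markers, with a median of 6.81 in high and 3.71 in low cells. Its difference of means was 1.52. It reached 5 in 15 high and 7 low cells. Of the 13 markers, 8 had positive and 5 negative differences, and Mfap5 was the lowest, at -0.89 and -0.97 within blocks.

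Of 12706 genes other than Prrx1, 4266 reached 5 in at least 5 cells and were compared. A difference of means of 2 or more was reached by 20 genes higher in the high cells (0.469%) and by 17 genes lower in them (0.398%), together 0.867% of genes. The median size of a difference was 0.50, where the median SD of a gene over all cells was 2.45, and 81.6% of genes differed by less than 1. For all 37 genes past a difference of 2 the ranges of the classes overlapped. The 37 genes reached 5 in 5 to 22 cells, with a median of 11. Each was thus at 5 or more in some cells and under 5 in others, and a value under 5 is not shown to be absence. Within blocks all 37 kept their direction and 12 stayed at 2 or more. With cells split at a Prrx1 value of 4 or of 6, 12 and 8 of them stayed at 2 or more. With values under 5 set to 5 all kept their direction, none stayed at 2 and 8 stayed at 1 or more. The 37 were picked by size in these same cells, so keeping the direction is largely built in. Over all compared genes the differences and their within-block forms correlated at 0.85. The same holds for the numbers of blocks in the same direction given below, and block 6 has only 1 low cell. Counted by the share of cells at 5 or more, 42 genes were at least 30 percentage points higher in the high cells (0.985%) and 28 at least that much lower (0.656%). The widest gaps were those of Meox2 and Aspn, at 45.8 points each, and of Nr3c1 and Col4a2, at -45.3 points each.

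**Figure D2:**
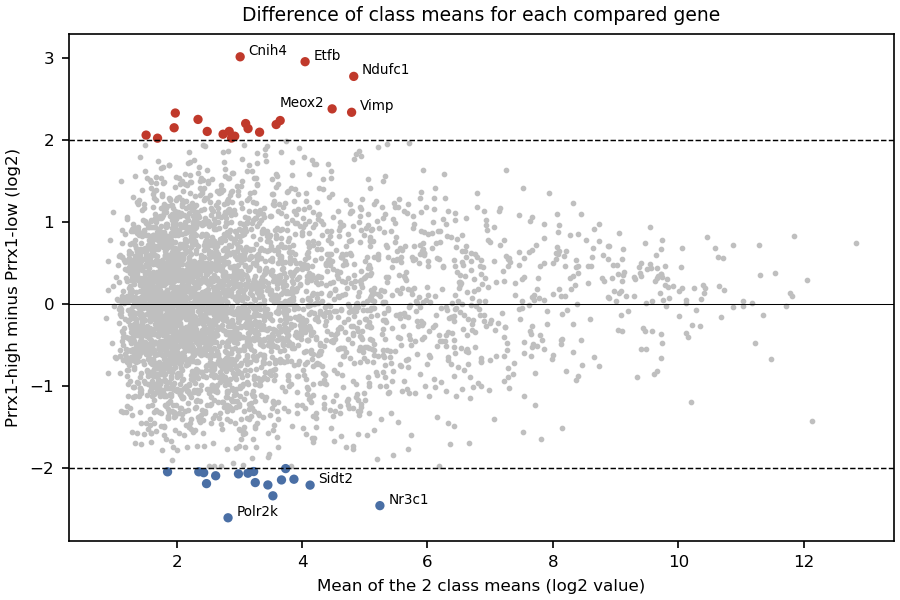
Difference of means, Prrx1-high minus Prrx1-low, in log2 units (vertical axis) against the mean of both class means (horizontal axis) for 4266 genes. Dashed lines mark 2 and -2, red points the 20 genes at 2 or more and blue points the 17 at -2 or less, and the named points include Etfb at 2.95 and Nr3c1 at -2.46.

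The 8 genes that stayed at 1 or more were 4 higher and 4 lower in the high cells. Among the higher ones, Etfb is a subunit of the flavoprotein that passes electrons from fatty acid oxidation to the respiratory chain, and Ndufc1 is a subunit of complex I of that chain. Etfb ran from 1.89 to 10.48 in the high cells, with a median of 4.95, and from 0 to 8.97 in the low cells, with a median of 1.88. The median low cell sat just below the lowest high cell, 3 low cells reached 5 against 11 high cells, and the ranges overlapped above that point. The difference of means was 2.95 (5.53 ± 2.89 against 2.57 ± 2.30), and 2.51 within blocks.

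Ndufc1 ran from 0 to 10.97 in high cells, with a median of 6.79, and from 0 to 10.31 in low cells, with a median of 2.07. Both classes covered the whole scale, but 16 of 23 high cells reached 5 against 6 of 21 low cells. Its difference was 2.77, with 2.65 within blocks. Of the 37 genes it alone stayed at 2 or more in all 20 alternatives that bear on it apart from setting values under 5 to 5. Respiratory chain subunits as a list were balanced: of 29 compared, 15 were higher and 14 lower, with a median difference of 0.05. Atp5j2, a subunit of ATP synthase, differed by -1.70 and the succinate dehydrogenase subunit Sdha by -1.27.

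Vimp (Selenos), a selenoprotein of the endoplasmic reticulum that takes part in the removal of misfolded proteins, was also among the higher genes. It ran from 1.58 to 10.40 in high and from 0 to 8.54 in low cells, with medians of 6.96 and 2.90, and reached 5 in 15 and 6 cells. High cells were thus more often above 5, and the ranges overlapped over most of their length. Its difference was 2.34 and 1.87 within blocks, in the same direction in 4 of 6 blocks.

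Among the lower genes, Nr3c1, the glucocorticoid receptor, was the one that reached 5 in the most cells. It ran from 0.45 to 9.31 in the high cells, with a median of 3.70, and from 1.04 to 9.37 in the low cells, with a median of 7.54. Low cells were mostly in the upper part of a shared range: 15 of 21 reached 5, against 6 of 23 high cells. The difference was -2.46 (4.01 ± 2.46 against 6.47 ± 2.65), and it was negative in 6 of 6 blocks. Within blocks its size was under 2, at -1.84, and with cells split at a Prrx1 value of 4 or of 6 it was -1.30 and -1.68.

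Polr2k, a small subunit common to the nuclear RNA polymerases, reached 5 in 8 low cells and in 0 of 23 high cells. The latter count allows a share of up to 13.04% by the limit of 3 counts used here for a count of 0. Polr2k was picked for a difference between the same classes, so a low count is partly built in. The limit covers counting error only. Its highest value was 4.09 in high and 9.75 in low cells, and its difference was -2.61. Sidt2, a lysosomal membrane protein, reached 5 in 3 high and 9 low cells, with a difference of -2.21 that was larger within blocks, at -3.23. Tnnt3, the fast skeletal troponin T of muscle fibres, had the same counts of cells, 3 and 9, and a difference of -2.21.

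**Figure D3:**
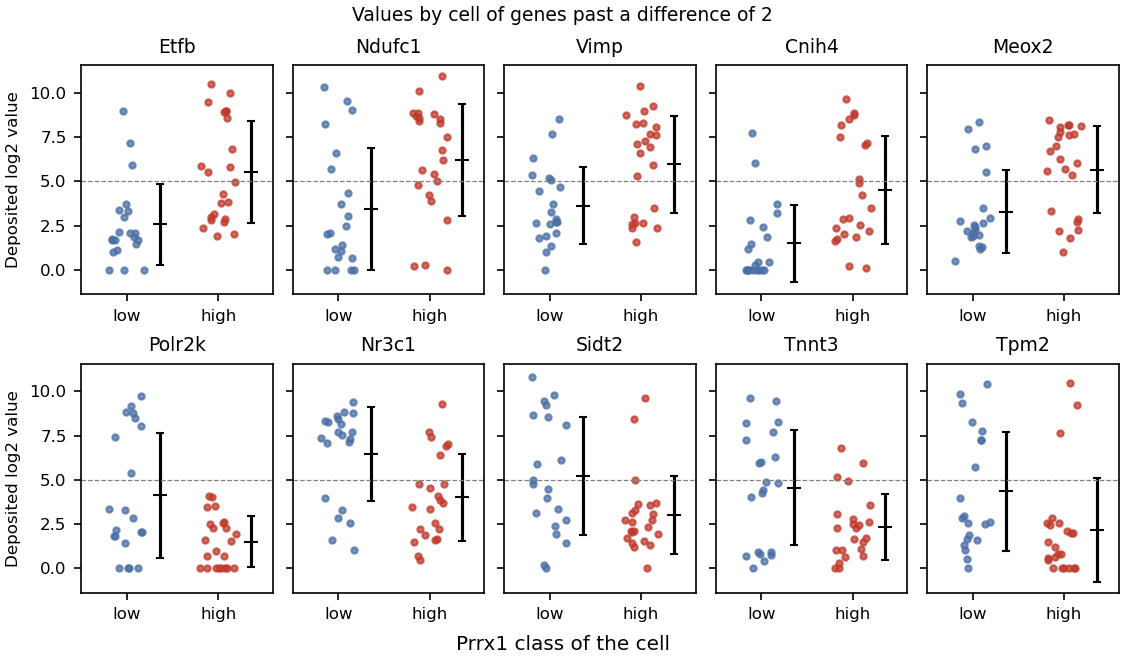
Deposited log2 values (vertical axis) of 10 genes in the 21 Prrx1-low (blue) and 23 Prrx1-high (red) cells; each point is 1 cell, the black mark the mean and its bar the SD over cells, and the dashed line is 5. The classes overlap in every panel, and Polr2k has no high cell at 5 or more.

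Of the 29 remaining genes past a difference of 2, the following were picked after their values were seen. Cnih4, of the cornichon family that helps membrane proteins leave the endoplasmic reticulum, had the largest difference, at 3.01, and reached 5 in 9 high and 2 low cells. Gtpbp4, a nucleolar GTPase of ribosome assembly, reached 5 in 8 high cells and in 0 of 21 low cells. By the same limit of 3 counts the latter allows a share of up to 14.3%. Gtpbp4 too was picked for its difference, so its limit has the same restriction. Fap, a surface protease of activated fibroblasts, differed by 2.10 and reached 5 in 8 high cells and 1 low cell, but differed by 0.86 within blocks and by -1.11 with cells split at a Prrx1 value of 6. It was highest in the cells next to the threshold, with 7 of the 14 cells of middle Prrx1 level at 5 or more and 2 of the 15 highest. Among the lower genes, Brd3, a bromodomain protein that reads acetylated chromatin, reached 5 in 5 high and 13 low cells. Slc39a10, a zinc importer, and Pik3r2, a regulatory subunit of PI 3-kinase, each reached 5 in 1 high cell and 8 low cells.

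Limb mesenchyme transcription factors, the family to which Prrx1 belongs by role, gave 1 gene past a difference of 2. Of 31 measured, 13 were compared, 9 were higher and 4 lower, with a median difference of 0.16 that was -0.14 within blocks. The gene was Meox2 (ENSMUSG00000036144, chromosome 12, 37108540 to 37179534, plus strand), a homeobox factor of limb muscle and connective tissue development. Meox2 ran from 1.03 to 8.47 in the high cells, with a median of 6.29, and from 0.50 to 8.34 in the low cells, with a median of 2.42. The ranges were nearly the same, but 16 of 23 high cells and 5 of 21 low cells reached 5. Its difference was 2.38, and 2.82 within blocks, with 6 of 6 blocks in the same direction. With cells split at a Prrx1 value of 4 or of 6 it was 1.57 and 1.48.

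Nfix, a nuclear factor I protein, differed in the other direction, at -1.77 and -2.62 within blocks, and reached 5 in 11 high and 16 low cells. Osr1 and Tcf7l2, which mark connective tissue fibroblasts of limb muscle, differed by 0.17 and 0.71. Osr1 reached 5 in 14 high and 13 low cells and Tcf7l2 in 20 and 16. Twist1, Prrx2 and Tcf21 reached 5 in no cell. On average high cells held 6.48 ± 1.31 of the 31 factors at 5 or more and low cells 6.14 ± 1.53. This difference of 0.34 changed sign within blocks, to -0.15.

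Promoter sequences are shown for Prrx1, for Meox2 as the only limb factor past a difference of 2, and for Etfb and Ndufc1, the genes with the largest differences among those chosen by rule. They come from RefSeq (GRCm38.p6) and run from 250 bases before to 50 bases after a transcription start, in lower case and 5′ to 3′ on the strand of the gene. Capitals mark TAATTA, the core site bound by paired-type homeodomains such as that of Prrx1, which reads the same on both strands and was searched without other motifs. The windows are chr1:163313601-163313900 on the minus strand, chr12:37108290-37108589 on the plus strand, chr7:43443822-43444121 on the plus strand and chr3:51408906-51409205 on the minus strand.
Prrx1: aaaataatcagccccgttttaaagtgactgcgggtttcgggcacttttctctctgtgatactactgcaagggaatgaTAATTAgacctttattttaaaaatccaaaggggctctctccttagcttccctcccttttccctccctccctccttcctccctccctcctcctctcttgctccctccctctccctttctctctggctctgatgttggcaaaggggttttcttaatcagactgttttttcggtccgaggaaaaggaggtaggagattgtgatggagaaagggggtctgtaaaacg
Meox2: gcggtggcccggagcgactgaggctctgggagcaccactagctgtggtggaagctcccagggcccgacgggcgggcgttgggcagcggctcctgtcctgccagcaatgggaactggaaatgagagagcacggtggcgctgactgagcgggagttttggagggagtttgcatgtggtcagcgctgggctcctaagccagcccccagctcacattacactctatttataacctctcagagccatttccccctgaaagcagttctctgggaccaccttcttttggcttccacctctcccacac
Etfb: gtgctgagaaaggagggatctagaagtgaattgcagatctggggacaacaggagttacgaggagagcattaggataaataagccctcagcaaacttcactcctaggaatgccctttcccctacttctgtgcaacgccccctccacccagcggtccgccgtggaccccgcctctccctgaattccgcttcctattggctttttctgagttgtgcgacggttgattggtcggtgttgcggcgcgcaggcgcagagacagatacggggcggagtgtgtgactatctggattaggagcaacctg
Ndufc1: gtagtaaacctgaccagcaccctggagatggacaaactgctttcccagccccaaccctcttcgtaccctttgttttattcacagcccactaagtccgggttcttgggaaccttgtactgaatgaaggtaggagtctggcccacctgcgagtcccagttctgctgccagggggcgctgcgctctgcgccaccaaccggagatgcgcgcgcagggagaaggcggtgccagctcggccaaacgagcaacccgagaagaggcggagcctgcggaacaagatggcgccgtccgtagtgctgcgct
The Prrx1 window holds the letters once, starting 173 bases before the start site. The windows of Meox2, Etfb and Ndufc1 do not hold them. Of the 37 genes past a difference of 2, 26 had a promoter in the table, and TAATTA was in 0 of them. It was in 2.93% of the 3306 compared genes with a promoter and in 5.29% of all 32851 promoters. A match is only a string of letters, and its absence from these windows says nothing about binding elsewhere.

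For a finer view of the named genes along the Prrx1 level, the 15 cells with the least Prrx1 (up to 2.71), the 14 between and the 15 with the most (from 5.87) were set side by side. Since the genes had been picked by a difference along the same axis, some order is built in and nothing is read from it. Ndufc1 went from 3.06 ± 3.43 to 4.57 ± 3.49 and 7.01 ± 2.68, and reached 5 in 4, 5 and 13 cells. Meox2 reached 5 in 4, 6 and 11 cells of the bands. Sidt2 ran in the other direction, reaching 5 in 7, 4 and 1 cells. By contrast Etfb was alike in the upper bands, with 4.81 ± 3.61 and 5.13 ± 2.65 against 2.45 ± 1.97 in the lowest, and Pdgfra was at 6.42, 6.23 and 6.11 from the lowest band to the highest.

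**Figure D4:**
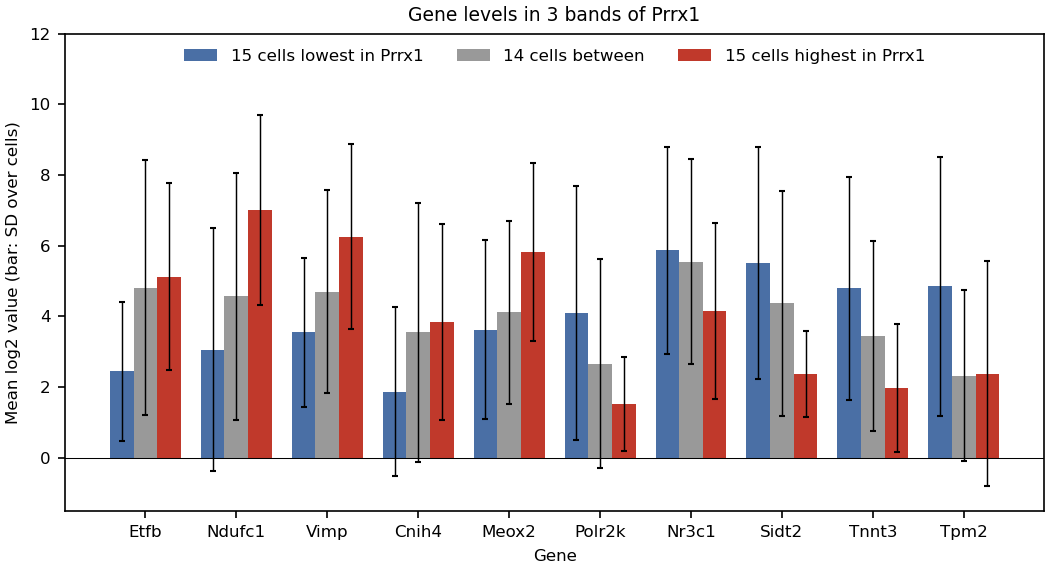
Mean log2 value (vertical axis; bars are SDs over cells) of 10 genes in the 15 cells lowest in Prrx1 (blue), the 14 cells between (grey) and the 15 cells highest in Prrx1 (red). Ndufc1 is at 3.06 in the lowest and 7.01 in the highest band, while Etfb is close in the upper bands, and the SDs are wide throughout.

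The genes whose values over the 44 cells ranked most like those of Prrx1 were Tmem94, with a Spearman correlation of 0.50, Serinc1 with 0.49, Ndufc1 with 0.46, Senp7, Toporsos, Etfb, Vimp, Ttc4, Mrc2 and Emc2 with 0.39. The median size over all compared genes was 0.10. These correlations are a description over cells that share blocks and a forced distribution. Toporsos is antisense to Topors by name, and the sources used here do not give whether strand was used in counting. Serinc1, a membrane protein that carries serine into lipid synthesis, was at 5.84 ± 2.70 in high and 4.04 ± 2.74 in low cells and reached 5 in 15 and 7. Mrc2, a receptor that takes up collagen, reached 5 in 4 and 2 cells.

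Of 593 genes on 32 lists of pathways and cell types, 355 were compared and 5 differed by 2 or more (1.41%, against 0.867% of all genes compared), among them Meox2, Nr3c1, Tnnt3 and Tpm2. No list had more than 1 such gene. The lists are therefore described by their medians, beside a median of 0.01 and 50.4% positive differences over all genes.

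Cytosolic ribosomal proteins, which make up the translation machinery, were the most one-sided long list. Of 29 compared, 24 had a positive difference, with a median of 0.37, and 0.26 within blocks. Rpl37 differed most, at 1.10, with 8.61 ± 0.99 in the high and 7.51 ± 1.30 in the low cells. Rplp1 was at 12.26 ± 0.77 and 11.43 ± 1.39 and Rps24 at 11.23 ± 0.89 and 10.51 ± 1.14. These genes reached 5 in nearly every cell, so their differences are shifts in level within cells and not in the number of cells. Rps2 and Rpl13a had differences of -0.33 and -0.30.

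Glucocorticoid and circadian clock genes lay on the other side, with 9 of 11 differences negative, a median of -0.83 and -1.07 within blocks. Nr3c1, the receptor, is described above. Tsc22d3, the glucocorticoid-induced leucine zipper, was at 3.93 ± 2.07 in high and 5.26 ± 2.65 in low cells. Per1, a clock repressor that glucocorticoids also induce, reached 5 in 7 high and 10 low cells, with a difference of -1.64 that shrank to -0.61 within blocks. Cry2, another clock repressor, reached 5 in 3 and 8 cells. The activators Arntl and Clock had differences of 0.55 and 0.74, but Arntl reached 5 in only 3 high and 2 low cells and Clock in 3 and 3. With values under 5 set to 5 their differences were 0.12 and 0.05. The median of the whole list also shrank in that setting, to -0.28.

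Fibroblast subset genes had negative median differences. High cells held 6.65 ± 4.42 of 17 Dpp4-type genes at 5 or more and low cells 7.14 ± 3.57, with a median difference of -0.12 over 15 compared and -0.01 within blocks. The high cells were spread more widely: the 6 cells with fewer than 3 of these genes and the 3 cells with 14, the most in any cell, were all Prrx1-high, and at least 3 were held by 17 of 23 high and 21 of 21 low cells. Pi16, a secreted marker of this state, reached 5 in 11 of 23 high cells (47.8%, 26.8 to 69.4) and 14 of 21 low cells (66.7%, 43.03 to 85.4), and the intervals overlap. Fbn1, the main microfibril protein, had the largest difference, -1.38. Of 16 Cxcl14-type genes, high cells held 8.52 ± 3.42 and low cells 9.43 ± 2.42, with 11 of 16 differences negative and a median of -0.47. The chemokine Cxcl14 reached 5 in 1 high and 6 low cells, with a difference of -1.39, whereas Inmt and Lpl differed by 0.04 and 0.26.

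Matrix genes likewise had medians near 0, at -0.21 for 12 compared collagen chains and -0.08 for 28 other matrix proteins. Single members stood out. Col4a2, a basement membrane collagen chain, reached 5 in 6 high and 15 low cells, with means of 3.82 ± 2.09 and 5.57 ± 1.71 and a difference of -1.75. Its partner chain Col4a1 reached 5 in 16 high and 12 low cells, with a difference of -0.43. Aspn, a small leucine-rich proteoglycan, was the reverse of Col4a2, in 16 high and 5 low cells, with a difference of 1.92 that was 2.56 within blocks. Col6a3 differed by 1.18. On the separate list of matrix proteases and their inhibitors, the secreted protease Htra1 differed by 1.85 and reached 5 in 6 high cells and 1 low cell. With values under 5 set to 5, the differences were 0.36 for Col6a3, 0.38 for Htra1, -0.62 for Col4a2 and 1.08 for Aspn.

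Among signalling genes, 5 of 20 measured Wnt genes were compared. All 5 had positive differences, with a median of 0.47, which was 0.28 with values under 5 set to 5. The secreted Wnt modulator Sfrp4 led at 1.74 and 0.73 within blocks. Ctnnb1 differed by only 0.08, and the difference of Wnt5a, 0.36, was -0.01 within blocks. Of 16 TGF-beta and BMP genes 9 were negative, with a median of -0.44 that was -0.25 within blocks and -0.09 with values under 5 set to 5. The ligand Bmp4 differed most in size. It reached 5 in 8 high and 13 low cells, with a difference of -1.59 and -2.42 within blocks. Cd81, a tetraspanin of progenitor surfaces, reached 5 in 18 of 23 high and all 21 low cells, with means of 6.99 ± 2.28 and 8.64 ± 1.54. It was lower in the high cells in 6 of 6 blocks. Of 18 complement and chemokine genes 13 were positive, with a median of 0.33. C3, the central complement protein, was at 8.62 ± 2.68 in high and 7.26 ± 2.75 in low cells, a difference of 1.35 that was 0.61 within blocks, and Cxcl12 reached 5 in 15 and 12 cells.

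Immediate early genes, which respond to tissue digestion, had 10 of 20 differences positive and a median of 0.00, which was -0.27 within blocks. High cells held 9.43 ± 3.79 of 22 at 5 or more and low cells 9.76 ± 3.73. This difference of -0.33 was -1.15 within blocks. Egr1 reached 5 in 15 cells of each class. Adipogenic regulators had a median of -0.05 over 7 genes, which was -0.61 within blocks and -0.99 without the 11 cells with at least 3 myofibre markers. Cell cycle inhibitors and quiescence genes had a median of 0.24 over 10. None of the 9 measured osteogenic and chondrogenic regulators reached the 5 cells needed for comparison.

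**Figure D5:**
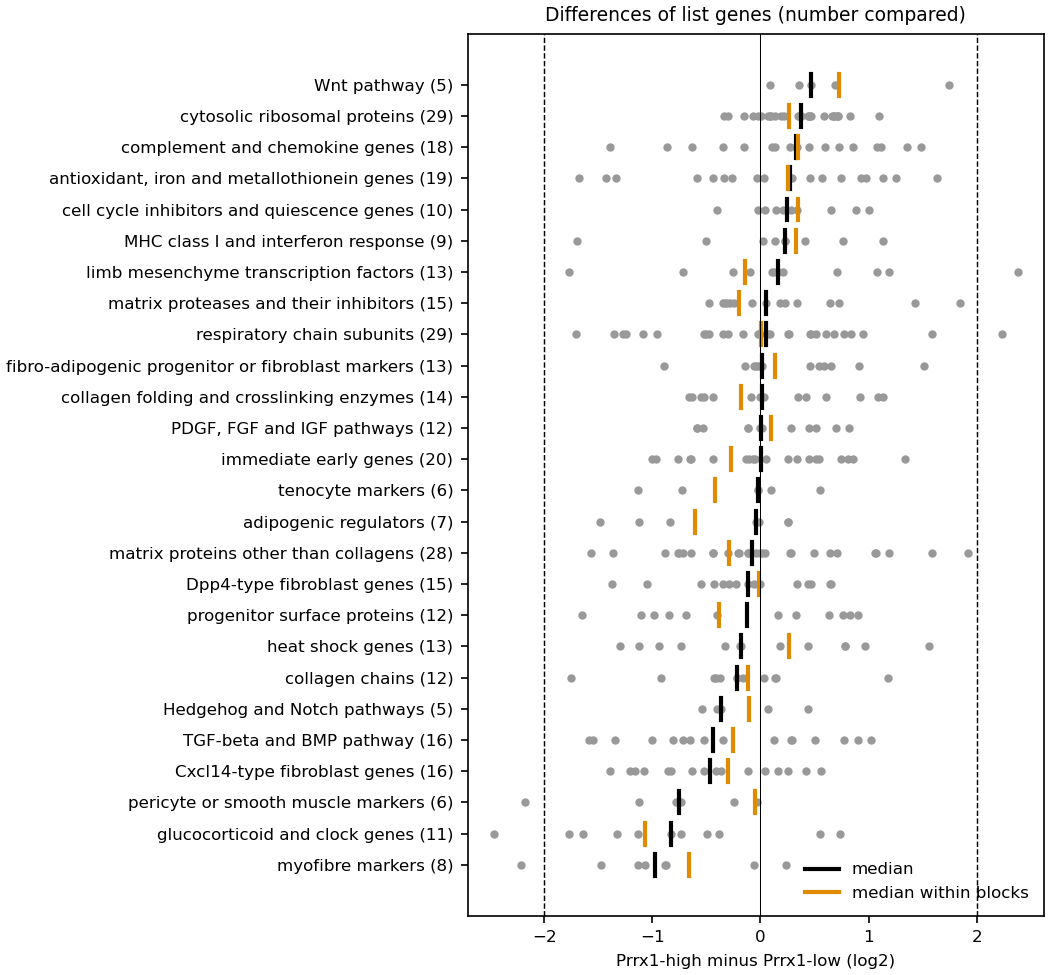
Difference of means, Prrx1-high minus Prrx1-low, in log2 units (horizontal axis) of each compared gene (grey points) in the lists with at least 5 compared genes (vertical axis, number compared in brackets). Black bars are list medians and orange bars the medians within blocks; the medians run from -0.97 for myofibre markers to 0.47 for Wnt genes.

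Markers of muscle fibres were on balance lower in the high cells, and those of mural cells likewise over all cells but hardly within blocks. Of 8 compared myofibre markers 7 were negative, with a median difference of -0.97 and -0.66 within blocks. At least 3 of 14 were at 5 or more in 4 high and 7 low cells, and Mylpf, a fast myosin light chain, was at 5 or more in 4 high cells (17.4%, 4.95 to 38.8) and 8 low cells (38.1%, 18.1 to 61.6), with overlapping intervals. Their summed FPKM ran from 14.99 to 3611 in high cells, with a median of 153, and from 28.5 to 7797 in low cells, with a median of 443. Actn3 reached 5 in no cell. Without the 11 cells with at least 3 myofibre markers, 25 of the 37 genes past a difference of 2 stayed there and 12 did not. Ndufc1 differed by 2.21 and Nr3c1 by -2.51 in that setting, while Sidt2 was at -1.71, Tnnt3 at -1.59 and Slc39a10 at -1.09. Serinc1, described above, was at 0.64.

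All 6 compared pericyte or smooth muscle markers were negative, with a median of -0.76 that was -0.05 within blocks. Tpm2, a tropomyosin of slow fibres and smooth muscle, differed by -2.18, and Acta2 reached 5 in 7 high cells (30.4%, 13.2 to 52.9) and 9 low cells (42.9%, 21.8 to 66.0), with overlapping intervals. At least 3 of 13 mural markers were held by 3 high and 6 low cells. High cells held 1.43 ± 2.31 of them and low cells 2.00 ± 2.14, a difference of -0.57 that was 0.08 within blocks. Cell 36, which held 11 of them and 6 fibroblast markers, was Prrx1-high at 7.49, and cell 30, with 9, was Prrx1-low at 1.76. The summed FPKM of the list ran from 3.16 to 32790 in high and from 12.3 to 7812 in low cells, and Cnn1 reached 5 in no cell. The part of these markers in the differences of other genes was not tested.

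Tenocyte markers had a median difference of -0.02 over 6 compared genes, which was -0.42 within blocks. Cells 40, 17 and 8, with 7, 9 and 7 of 10 such markers, had Prrx1 values of 7.95, 2.66 and 4.96, from the top of the high class to just under the threshold. The endothelial, leukocyte, satellite cell and glial lists had at most 2 markers at 5 or more in any cell. Pecam1, Cdh5 and Kdr of the endothelial list and Ptprc, Adgre1 and Csf1r of the leukocyte list reached 5 in no cell.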

How the data were processed

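Single-cell RNA-seq libraries were made from 44 sorted and hand-picked Tomato-positive cells. The deposited file holds log2 values, named as FPKM, in 12745 rows. TopHat2, Cufflinks and GRCm38 were used, per the submitters' processing notes, with no versions. The log base and the shared distribution were read from the values: 2 to the value, minus 1, sums to 579623 to 579912 per cell, and at each of the 4000 highest ranks all cells lay within 0.0876. Of the IDs, 12711 were in the reference name table, 18 symbols written as dates were restored, and repeated symbols were represented by their row of highest mean, leaving 12707.

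Means, SDs and differences were computed with Python 3.11.15, numpy 2.4.6, pandas 2.3.3 and scipy 1.17.1. Blocks came from Spearman correlations over all rows, an Otsu threshold (scikit-image 0.26.0) and average linkage with at least 3 cells. Within-block differences were weighted by n_high × n_low / (n_high + n_low). No test was run. Named genes were up to 15 per direction past a difference of 2 that stayed at 1 or more with values under 5 set to 5 and kept their sign within blocks, which left 8. Further named genes were the list genes past 2, the member of each list that differed most, the compared members of the lists of limb factors, fibroblast markers and surface proteins (some given only in counts), and the 10 most like Prrx1. A result under this rule is not reported here. Other genes named as examples were chosen after their values were seen. Members and lists were chosen with earlier results of these data known. Of the list genes, 39 are not analysed here. Coordinates are from GENCODE on GRCm38. Difference and block steps were tested on simulated data.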

Additional observations from a re-analysis of the deposited data

How the results depend on the processing

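The counts of 20 higher and 17 lower genes depended on most settings. They were 0 and 0 with values under 5 set to 5, 11 and 7 with values under 1 set to 1, and 104 and 93 with a pseudocount of 0.1. Splitting at a Prrx1 value of 4 gave 12 and 26, of which 7 and 5 were among the original genes, and splitting at 6 gave 37 and 34, with 3 and 5. The 15 highest against the 15 lowest cells gave 40 and 51, and medians gave 144 and 124. Within blocks there were 15 and 23, of which 7 and 5 were shared. Leaving out block 1 gave 42 higher genes, block 2 gave 35 and 39, block 3 gave 37 and 35, block 4 gave 30 lower, and block 5 gave 40 and 42, while block 6 moved neither count by over 1.5 times. Without the 8 cells with at least 4 tenocyte or mural markers there were 31 and 36, and a filter of 10 cells left 11 and 11. A filter of 3 cells, no filter and the first row for repeated symbols gave the same 20 and 17 genes. Chosen after seeing the data, leaving out the 11 cells with myofibre markers gave 59 and 63, leaving out the 2 cells in no block 18 and 19, and a share of cells at 5 or more that differed by 30 percentage points gave 42 and 28 genes (0.985% and 0.656%). Of the 37 genes, 1 changed direction: Fap was at -1.11 with the split at 6. The causes were not tested. No paired analysis was possible because the labels give 1 group. Depth is unknown, and with 1 sample no difference has a replicate.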
